A study of Mus musculus with 32 samples.

Results

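The molecular chaperones of mouse hippocampal neurons were followed here as a family of 73 protein-coding genes, the heat shock proteins and their cochaperones. A gene was a member when it was listed as protein-coding in the neurite-enrichment tables of the series and its symbol began with Hspa, Hspb, Hspd, Hspe, Hsph, Hsp90, Dnaja, Dnajb or Dnajc followed by its number or letter, or was Bag1 to Bag6. The tables held 23566 genes, of which 15805 were protein-coding. The family comprised 13 Hsp70 genes (Hspa), 1 Hsp110 gene (Hsph1), 2 cytosolic Hsp90 genes, 3 chaperonin genes (Hspd and Hspe), 7 genes named Hspb, 41 J-domain genes (4 Dnaja, 12 Dnajb and 25 Dnajc) and 6 Bag genes. Hspb11 and Hspbap1 entered by their names only, and Hsp90b1, the Hsp90 of the endoplasmic reticulum (ER), fell outside the rule.

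Neurons from C57BL/6 mice (WT) and from Mettl3 flox/flox mice were grown for 15 days on a porous membrane, so that cell bodies (soma) stayed above it and axons and dendrites (neurites) were collected below it. Both genotypes received an AAV that expresses Cre under the neuronal hSyn promoter, so the WT cells carried the virus as well and glial cells were not the target of the deletion. Every culture then had its synaptic activity blocked by 1 µM TTX together with 50 µM D-AP5 during 16 h. Cultures were harvested untreated (Ctrl) or after 2 h in 55 mM KCl, which depolarizes the membrane. RNA-seq libraries were made from 50 ng of RNA in each of the 8 combinations of genotype, compartment and treatment, with 2 libraries each. Replicates came from distinct litters of newborn pups of mixed sex whose hippocampi were pooled by litter, and neurites that had not crossed the membrane may remain in the soma fraction. Control and KCl-treated neurons shared a litter, and the main KCl test had no term for it. Each litter had a single genotype, so genotype and litter cannot be told apart. A second set of 16 libraries measured m6A by DART-seq.

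Hsp70 proteins bind exposed hydrophobic stretches of unfolded clients in cycles of ATP hydrolysis. J-domain proteins (Dnaja, Dnajb, Dnajc) deliver clients and start hydrolysis, while Hsp110 and Bag proteins exchange the nucleotide and release the client. Hsp90 completes the folding of kinases and receptors, the Hspd1 and Hspe1 chaperonin folds proteins in mitochondria, and small heat shock proteins (Hspb) hold aggregating proteins without ATP. Some members are constitutive, others are induced by the factor HSF1 under cytosolic stress or by the unfolded protein response under ER stress, and neurons are known for a high threshold of the classical heat shock response.

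Library totals ranged from 33789183 to 71394235 counted fragments. Levels below are CPM (counts scaled to a common library total) adjusted by the TMM method over the 16 libraries. The labels were checked with a few genes. Mettl3 stood at 16.7 and 16.2 CPM in WT soma Ctrl and at 8.94 and 10.98 CPM in Mettl3 KO soma Ctrl, and at 12.01 and 12.5 against 3.91 and 6.76 CPM in neurites Ctrl. Its level was thus lower in all 4 untreated KO libraries, although the KO-to-WT difference was not called (adjusted p = 0.624 in soma and 0.423 in neurites by edgeR). Fos, an immediate early gene of depolarization, went from 12.9 and 12.4 CPM in WT soma Ctrl to 3205 and 2750 CPM in WT soma KCl. All 10 neuronal markers searched (such as Rbfox3, Map2 and Syt1) and all 10 astrocyte markers (such as Gfap and Aqp4) were at or above 1 CPM in every library, so RNA of astrocytes was present throughout. Fewer cells of a type and less RNA per cell cannot be told apart in such bulk libraries.

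The WT and KO libraries differed in quality as measured by their replicates. Across genes, replicate libraries differed on the log2 scale with an SD of 0.167 to 0.364 in the 4 WT groups and of 0.502 to 1.33 in the 4 KO groups. The WT comparisons were therefore fitted to the 8 WT libraries and the KO comparisons to all 16. In the libraries of KCl-treated Mettl3 KO replicate 1, the summed level of 8 oligodendrocyte-lineage markers was 3771 CPM (soma) and 7576 CPM (neurites), against 58.9 to 192 CPM in the other 14 libraries. The astrocyte sum was 9916 and 19360 CPM there, against 1159 to 6745 CPM elsewhere. Results that rest on this replicate are given below with and without it.

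Near-identical copies limit what can be assigned to a single member, since the counting included reads that map to several places. Hspa1b held 70.99 to 80.2% of the counts of Hspa1a, with which it is nearly identical. The processed pseudogenes Hspd1-ps3 and Dnajb6-ps took 23.8 to 30.8% and 25.5 to 30.3% of the counts of their parents. The counting used no strand, so exon stretches that overlap another gene cannot be told apart from it. Such overlap covered 71.9% of the exon bases of Hspa1l, 44.0% of those of Dnaja4 (with Wdr61) and 30.2% of those of Hspb2 (with Cryab). For further members discussed below, the largest overlap with any other gene was 19.0% for Hspa1a, 11.2% for Dnajb13 (with Ucp2) and 7.91% for Hspa14. It was 7.66% for Dnajc25, 7.60% for Hspe1 (with Hspd1), 7.05% for Dnaja1, 6.43% for Dnajc1 and 5.31% for Hspb6 (with Proser3). There was none for Bag1, Hspb8, Hspa5, Dnajb1 and Bag3, and smaller overlaps of other members are not listed.

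The highest mRNA levels of the family in untreated WT soma were those of cytosolic Hspa8 and the 2 cytosolic Hsp90 genes. Per kb of exon length, Hspa8 (Hsc70, the constitutive Hsp70) was highest in WT soma Ctrl with 853 ± 1.10 CPM per kb (SD, n = 2). It was followed by Hsp90ab1 (449 ± 28.5), Hsp90aa1 (197 ± 11.1), the ER Hsp70 Hspa5, also known as BiP (177 ± 6.32), and the mitochondrial chaperonin Hspd1 (95.1 ± 3.91). These 5 were separated by more than their replicate range. Hspe1 (59.8 ± 4.22) and the J-domain protein Dnaja1 (59.3 ± 0.562) were not, since both Dnaja1 values lay between those of Hspe1. Hspa8 alone made up 31.7% of the summed CPM of the 73 members. The inducible Hsp70 genes were far lower, with 26.2 and 28.0 CPM for Hspa1a against 3671 and 3665 CPM for Hspa8 in the same soma libraries. At the low end, 12 members were below 1 CPM per kb in WT soma Ctrl, among them Bag3 (0.522 ± 0.0322), Hspb1 (0.511 ± 0.109) and Hspb7 (0.101 ± 0.00881). The median member stood at 9.58 CPM per kb, and the median over 24180 genes (mean count 10 or more) was 1.70.

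The first comparison asked which chaperone mRNAs lie preferentially in neurites. In untreated WT neurons, few members were strongly partitioned. Bag1 was 3.24-fold and the small heat shock gene Hspb8 2.38-fold higher in neurites, with Dnajc27 (1.91-fold) and Dnajc4 (1.64-fold) next, while Dnajb13, the ER J-domain gene Dnajb9 and Dnajc12 were 1.84-, 1.83- and 1.64-fold lower. A gene was called at an adjusted p of at most 0.05 and a fold of at least 1.5 (edgeR quasi-likelihood F-test, Benjamini-Hochberg over all genes). By this rule 4 members were higher in neurites, where 9.01% of all 23200 tested genes were, and 3 were lower, where 4.54% were. The members as a group leaned mildly to the soma, with 21 of 73 (28.8%) above 0 against 42.9% of all tested genes, and a median log2 ratio of −0.22 against −0.10. When the scaling came from all 16 libraries, the median of all genes moved to 0.00 and that of the members to −0.13, with 27 of 73 above 0. In a fit to those 16 libraries no member and no other gene was called in this comparison by edgeR, and 1174 genes were higher and 463 lower at an unadjusted p with the fold.

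**Figure D1:**
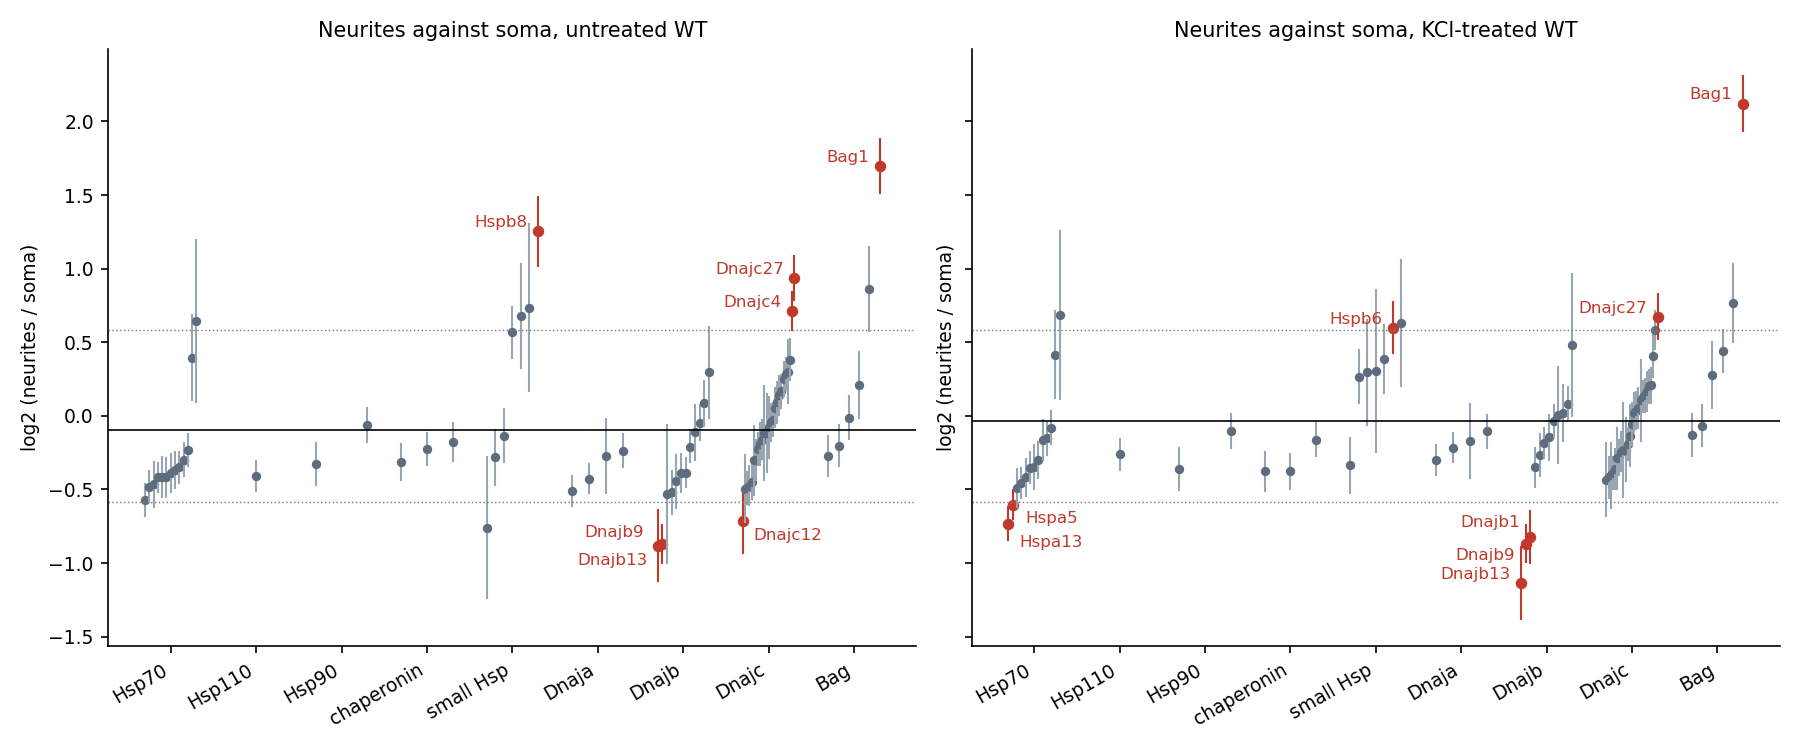
Log2 ratio of neurites to soma for each member in untreated (left) and KCl-treated (right) WT neurons, by subfamily. Points are estimates with bars of 1 SE, red points passed the test, dotted lines mark 1.5-fold and the solid line is the median of all tested genes. Bag1 lies highest in both panels, at 1.70 and 2.12.

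Bag1, a nucleotide exchange factor of Hsp70 with anti-apoptotic activity, was the most neurite-enriched member. Its levels were 48.4 and 31.0 CPM in WT soma Ctrl and 132 and 143 CPM in WT neurites Ctrl. Both neurite values lay far above both soma values. The log2 ratio was 1.70 ± 0.18 (SE, adjusted p = 0.000343). Hspb8, which works with Bag3 in selective autophagy of misfolded proteins, was at 2.74 and 3.25 CPM in soma and at 9.20 and 5.95 CPM in neurites (log2 1.25 ± 0.24, adjusted p = 0.00578). Dnajc27, a Rab-like GTPase with a J domain, went from 59.2 and 64.1 CPM in soma to 108 and 144 CPM in neurites (0.94 ± 0.15, adjusted p = 0.00282). Dnajc4 was at 16.6 and 15.9 CPM in soma and at 26.2 and 30.5 CPM in neurites (0.71 ± 0.13, adjusted p = 0.00509). In each of these 4 members the soma and neurite libraries did not overlap. They were picked because they were called on the same values, so this is no further support.

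The astrocyte marker sum was also higher in these neurite libraries, at 2050 and 3143 CPM against 1159 and 1182 CPM in soma, and the neuronal sum was 11268 to 13473 against 5416 to 5806 CPM. Of the 10 astrocyte markers 5 were called higher in neurites and none lower, and of the 9 tested fibroblast and vessel markers 5 and none. The part of these cells in the enrichment of Hspb8 and the other members was not tested. Cryab, a small heat shock protein outside the rule that glia express strongly, moved the same way, with 11.99 and 11.6 CPM in soma and 48.4 and 45.96 CPM in neurites (log2 1.91 ± 0.14, adjusted p = 0.000114).

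On the soma side, Dnajb9 (ERdj4), which assists Hspa5 in the ER, was at 91.4 and 95.2 CPM in soma and 54.3 and 54.7 CPM in neurites (−0.87 ± 0.13, adjusted p = 0.00174). Dnajb13, better known from sperm and cilia, was scarce, at 2.336 and 2.699 against 1.44 and 1.47 CPM (−0.88 ± 0.24, adjusted p = 0.0286). Dnajc12 had 7.13 and 7.02 against 5.33 and 3.79 CPM (−0.72 ± 0.21, adjusted p = 0.0398). The last 2 calls are fragile: Dnajb13 lost its call when any of the 4 untreated WT libraries was left out (adjusted p of 0.0700 to 0.264), and Dnajc12 when soma replicate 1, soma replicate 2 or neurites replicate 2 was (0.188 to 0.232). Without soma replicate 1 the adjusted p of Hspb8 was 0.0549, and without soma replicate 2 that of Dnajc4 was 0.0518. The number of members called was 4 without either of these soma libraries.

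**Figure D2:**
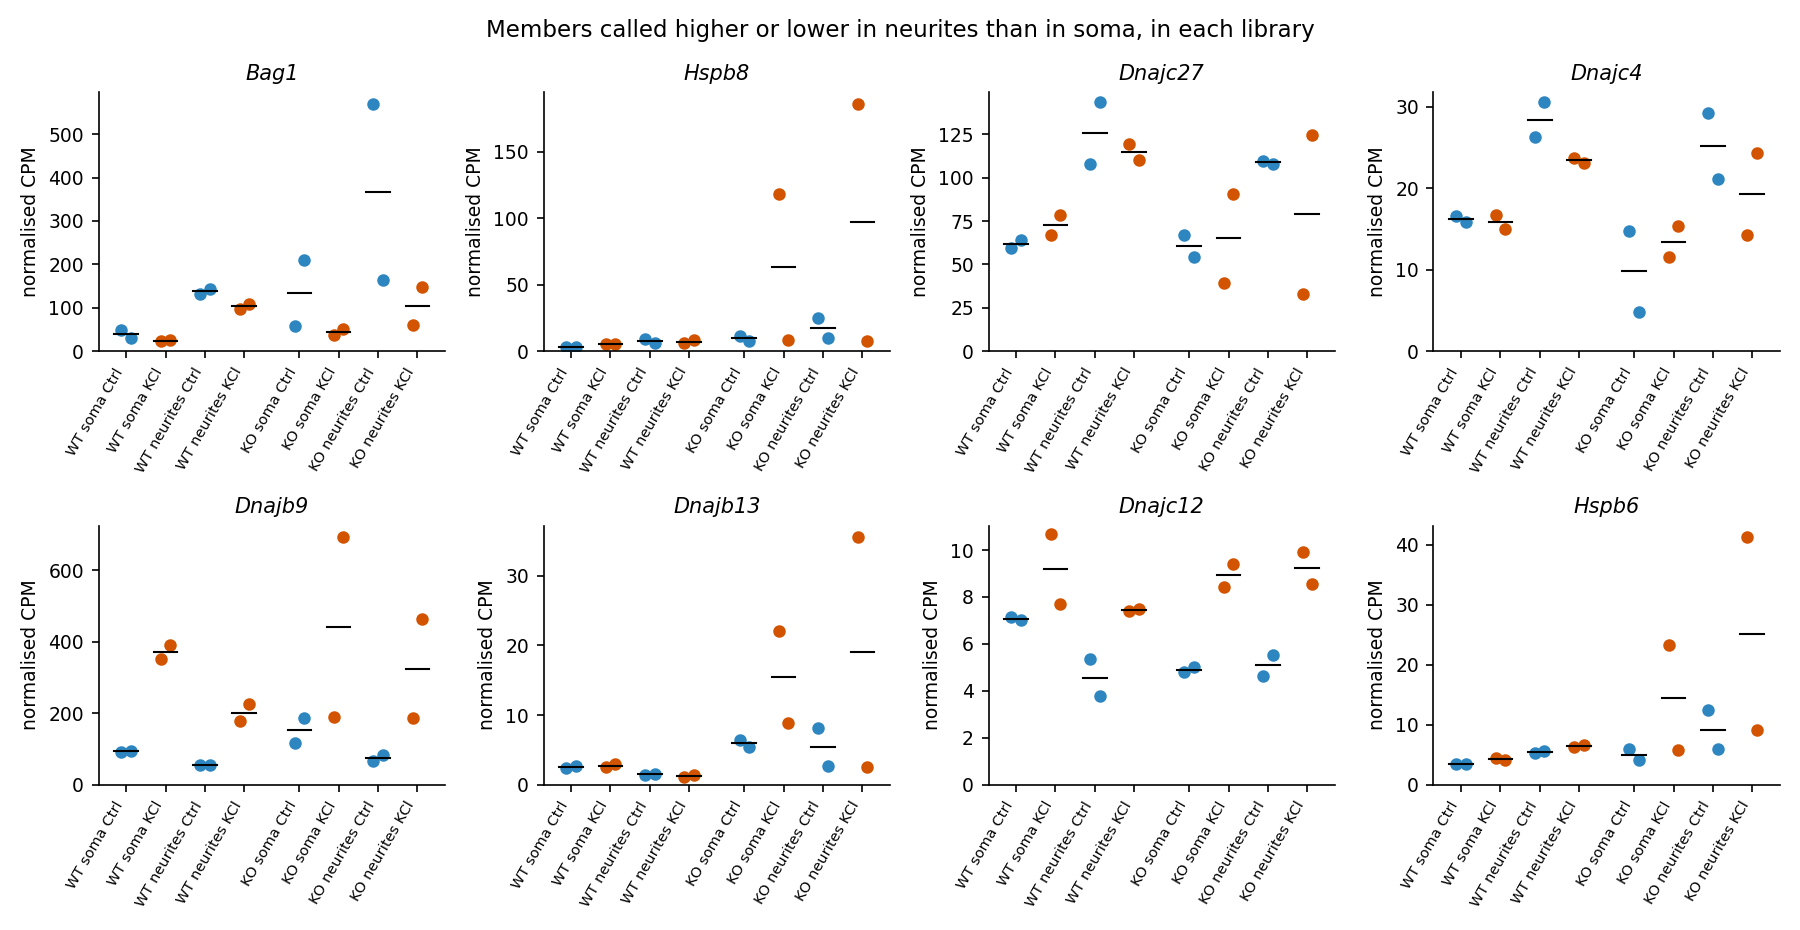
Level of 8 members called between soma and neurites, in TMM-scaled CPM (linear axis from 0), in each of the 16 libraries. Blue points are untreated and orange points KCl-treated libraries, and black lines are means of 2. Bag1 in WT lies at 31.0 to 48.4 CPM in untreated soma and 132 to 143 CPM in untreated neurites, and Hspb8 is above 100 CPM only in KCl-treated KO replicate 1.

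Several members passed the adjusted p on the soma side without the fold. Hspa8 had 3671 and 3665 CPM in soma against 2848 and 2763 CPM in neurites (−0.48 ± 0.10, adjusted p = 0.0109), short of 1.5-fold. Dnaja1 (−0.43 ± 0.10), Dnaja2 (−0.51 ± 0.10), Hsph1 (−0.41 ± 0.10) and Hspa5 (−0.42 ± 0.10) were likewise short of the fold. Hsp90aa1 (−0.33 ± 0.14) and Hspd1 (−0.23 ± 0.11) did not pass the adjusted p. Hsp90ab1 was at 1407 and 1286 CPM in soma and 1312 and 1443 CPM in neurites, overlapping ranges with a log2 ratio of −0.06 ± 0.11. Of the 9 ER members and Hsp90b1, read as a list, 9 of 10 were below 0 with a median of −0.43. The 8 mitochondrial members were split, 4 above and 4 below 0, with a median of −0.07. The members of synaptic vesicle and endosome traffic were Dnajc5 (cysteine string protein alpha, a vesicle chaperone; 0.29 ± 0.11), Dnajc6 (auxilin, which uncoats clathrin; 0.25 ± 0.12) and Dnajc13 (−0.19), and none was called. Among 29 partners outside the rule, 2 were called higher (Cryab and Serpinh1, at 0.68 ± 0.11) and 1 lower (Hsf2, −0.66 ± 0.19). The HSF1 gene itself was not called (−0.27 ± 0.11), nor were the Hsp70-Hsp90 adaptor Stip1 (−0.48 ± 0.11) and the ubiquitin ligase Stub1 (0.12 ± 0.10).

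After KCl, Bag1 was again the most neurite-enriched member, at 23.1 and 24.6 CPM in soma and 97.5 and 108 CPM in neurites (2.12 ± 0.19, adjusted p = 0.000328). Besides Bag1, Dnajc27 (0.67 ± 0.15, adjusted p = 0.0169) and Hspb6 (0.60 ± 0.17, adjusted p = 0.0458) were called higher in neurites, making 3 members where 6.87% of 23028 genes were called. Lower in neurites were 5 members, where 2.73% of genes were called: Dnajb13 (−1.13 ± 0.24), Dnajb9 (−0.87 ± 0.13), Dnajb1 (−0.82 ± 0.18), Hspa13 (−0.73 ± 0.11) and Hspa5 (−0.60 ± 0.10). The median member stood at −0.15 and the median gene at −0.03. Hspb6 lay at the threshold and was called under none of its 11 alternatives. Dnajb1 (adjusted p = 0.0963), Dnajb13 (0.115), Dnajc27 (0.129) and Hspa5 (0.0635) were lost when neurites replicate 1 was left out. Dnajb13 and Dnajc27 were also lost without neurites replicate 2 (0.0570 and 0.0579). Without soma replicate 1 Dnajc27 (0.57), and without soma replicate 2 Hspa5 (−0.57), fell short of the fold. The number of members called was 3 without neurites replicate 1 and 5 without neurites replicate 2. The ER list had 4 of 10 genes called lower in this comparison, namely Hspa5, Hspa13, Dnajb9 and Hsp90b1 (−0.65 ± 0.11), and none higher.

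The effect of depolarization on abundance was the clearest change in the family. In WT soma 7 members rose, and the 7 that rose in WT neurites were the same: the ER pair Hspa5 and Dnajb9, the cytosolic Hsp70s Hspa1a and Hspa1b, the J-domain gene Dnajb1, the Hsp110-type exchange factor Hspa4 and the exchange factor Bag3. No member fell in either compartment. A call here needed an adjusted p of at most 0.05 and a 2-fold change. Calls higher covered 3.74% of 24060 genes in soma and 3.33% of 22059 in neurites, and calls lower 2.96% and 1.70%. The median log2 change was 0.07 over members and 0.01 over all genes in soma, and 0.06 and 0.01 in neurites.

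**Figure D3:**
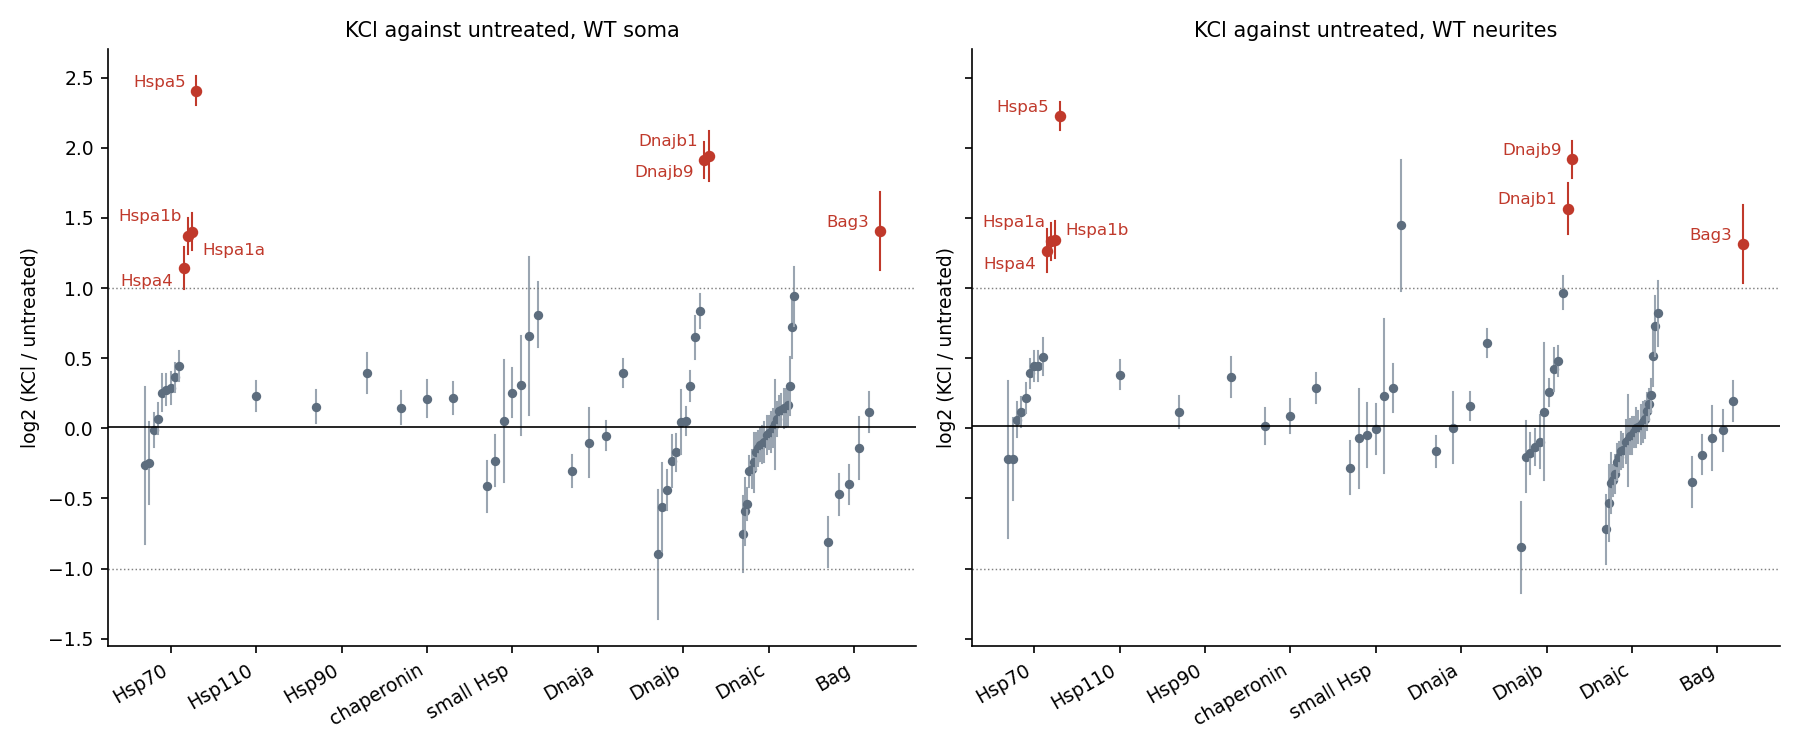
Log2 change after 2 h of KCl for each member in WT soma (left) and WT neurites (right), by subfamily. Points are estimates with bars of 1 SE, red points passed the test, dotted lines mark 2-fold and the solid line is the median of all tested genes. The same 7 members are red in both panels, from 1.14 (Hspa4, soma) to 2.41 (Hspa5, soma).

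In the ER, Hspa5 went from 768 and 731 CPM to 4136 and 4239 CPM in soma and from 613 and 585 CPM to 2574 and 2886 CPM in neurites. Every KCl library lay above every untreated library by a wide margin. The rise was 5.30-fold in soma (log2 2.41 ± 0.10, adjusted p = 1.87e-07) and 4.68-fold in neurites (2.23 ± 0.10, adjusted p = 7.17e-07). After KCl, Hspa5 thus came close to Hspa8, which stood at 5251 and 4705 CPM in the same soma libraries. Dnajb9 rose from 91.4 and 95.2 CPM to 351 and 390 CPM in soma (1.91 ± 0.13, adjusted p = 4.96e-06) and from 54.3 and 54.7 CPM to 178 and 224 CPM in neurites (1.92 ± 0.13, adjusted p = 1.09e-05). The other ER members were not called. Dnajc1, an ER J-domain protein, came nearest to the fold in soma, with 11.3 and 10.4 CPM before and 17.5 and 26.4 CPM after KCl (0.94 ± 0.21, adjusted p = 0.0138), and was at 0.51 ± 0.21 in neurites. Dnajb11 (0.05 ± 0.10 in soma and 0.26 ± 0.10 in neurites) and Dnajc3 (0.07 ± 0.12 and 0.23 ± 0.12), both cochaperones of Hspa5, stayed near 0, and so did Hspa13 (0.27 ± 0.11 and 0.12 ± 0.11). Hsp90b1 was at 0.43 ± 0.11 and 0.27 ± 0.11, under the fold.

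Genes of the unfolded protein response outside the family showed the same unevenness. Of 20 tested, 3 rose in soma and the same 3 in neurites: the transcription factor Atf4 (5.58-fold in soma, 6.24-fold in neurites), Herpud1 of ER-associated degradation (4.06- and 5.37-fold) and the phosphatase subunit Ppp1r15a (9.30- and 8.06-fold). Atf4 was at 36.4 and 32.8 CPM in untreated and 219 and 189 CPM in KCl-treated soma. Xbp1 (0.02 ± 0.10 in soma), Ddit3 (0.14 ± 0.13), Hyou1 (−0.13 ± 0.34) and the lectin chaperone Calr (0.27 ± 0.10) were not called.

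Among heat-inducible members, Dnajb1 (Hsp40, the main cytosolic partner of inducible Hsp70) rose from 88.0 and 93.4 CPM to 343 and 391 CPM in soma (3.84-fold, log2 1.94 ± 0.18, adjusted p = 6.17e-05). In neurites it rose from 70.3 and 72.0 CPM to 159 and 252 CPM (2.96-fold, 1.57 ± 0.18, adjusted p = 0.000529). Hspa1a went from 26.2 and 28.0 CPM to 67.8 and 80.0 CPM in soma (1.37 ± 0.13, adjusted p = 6.17e-05) and from 20.9 and 23.3 CPM to 52.5 and 57.1 CPM in neurites (1.35 ± 0.13, adjusted p = 0.000135). Its copy Hspa1b gave nearly the same values (1.40 ± 0.13 and 1.33 ± 0.13), which are not independent of it. Bag3, an exchange factor that directs Hsp70 clients to autophagy, was low throughout, at 1.40 and 1.28 CPM before and 2.999 and 4.449 CPM after KCl in soma (1.40 ± 0.28, adjusted p = 0.00737), and at 3.08 and 2.08 against 5.58 and 7.05 CPM in neurites (1.32 ± 0.28, adjusted p = 0.0154). Hspa4 rose from 145 and 163 CPM to 310 and 407 CPM in soma (2.21-fold, adjusted p = 0.000649) and from 124 and 114 CPM to 256 and 302 CPM in neurites (2.41-fold, adjusted p = 0.000658).

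The calls of Bag3 and Hspa4 depend on single libraries. Bag3 lost its call in soma without untreated replicate 1 (adjusted p = 0.0583) or 2 (0.0672), and in neurites without untreated replicate 2 (0.0829) or KCl replicate 2 (0.135). Hspa4 in soma was at 0.92, under the fold, without KCl replicate 2. In a fit to all 16 libraries, whose dispersion is set largely by the KO replicates, Hspa5 alone was called in each compartment. The estimates of the other 6 were then 1.22 to 2.01 in soma and 1.23 to 1.88 in neurites.

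**Figure D4:**
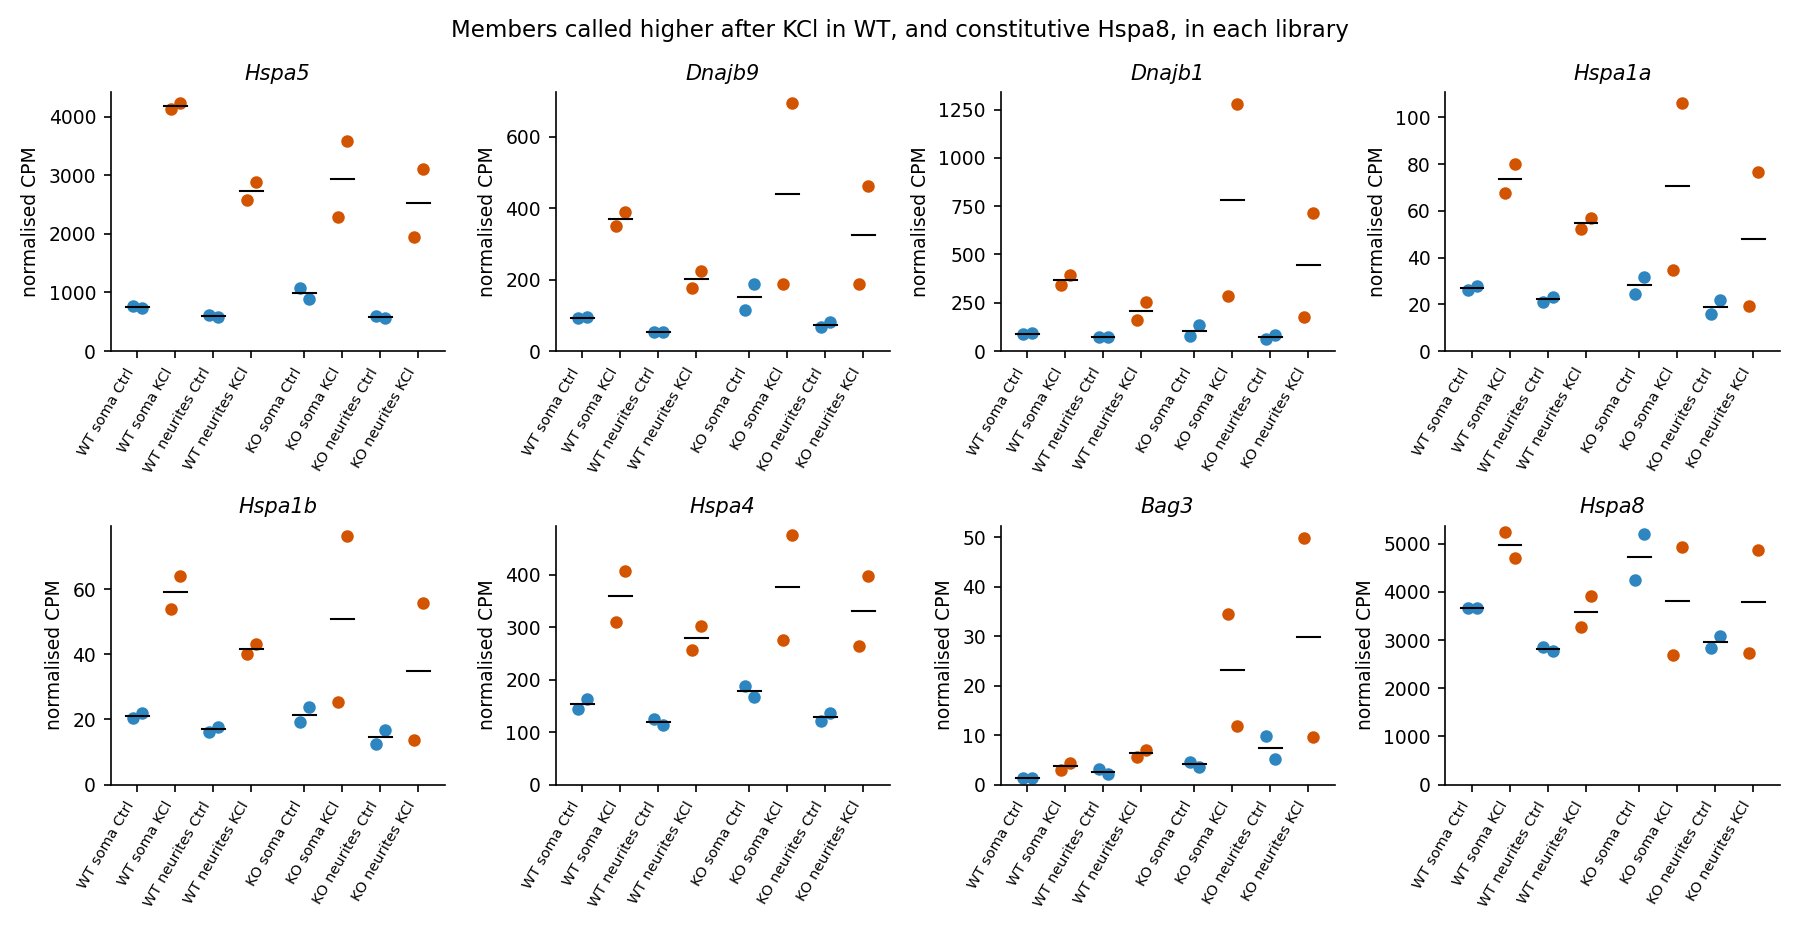
Level of the 7 members that rose after KCl in WT and of constitutive Hspa8, in TMM-scaled CPM (linear axis from 0), in each of the 16 libraries. Blue points are untreated and orange points KCl-treated libraries, and black lines are means of 2. For Hspa5 the WT libraries span 585 to 768 CPM untreated and 2574 to 4239 CPM after KCl.

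Most heat-inducible members were not called. Of 14 on the list, 4 were called higher in each compartment (Hspa1a, Hspa1b, Dnajb1 and Bag3), and the list's median was 0.38 in soma and 0.39 in neurites. Hspa8 went from 3671 and 3665 to 5251 and 4705 CPM in soma (0.36 ± 0.10) and Hsp90aa1 from 805 and 743 to 1256 and 895 CPM (0.40 ± 0.14), both below the fold. Hsph1 (0.23 ± 0.11), Hsp90ab1 (0.16 ± 0.12), Hspd1 (0.22 ± 0.11), Hspe1 (0.15 ± 0.12) and Hspb1 (0.31 ± 0.35) had small estimates in soma. Among the heat-inducible members not called, Dnajb4 was nearest to the fold, with 35.9 and 35.6 CPM before and 72.9 and 61.8 CPM after KCl in soma (0.84 ± 0.12, adjusted p = 0.00113) and 0.97 ± 0.12 in neurites (adjusted p = 0.000685). Bag1 had the lowest estimate among members above 10 CPM in soma, with 48.4 and 31.0 CPM before and 23.1 and 24.6 CPM after KCl (−0.81 ± 0.18, adjusted p = 0.0133), also short of 2-fold. Hspa9, the mitochondrial Hsp70, was at 0.44 ± 0.11 in soma and 0.44 ± 0.10 in neurites. Of the 29 partners outside the rule none was called in either direction in either compartment, and Hsf1 was at −0.06 ± 0.11 in soma. The astrocyte sum was 1655 and 1674 CPM in KCl-treated soma against 1159 and 1182 CPM untreated, and 1 of its 10 markers was called higher (Sox9, 2.02 ± 0.25). The part of astrocyte RNA in the rise of the 7 members was not tested.

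The promoters of the 7 were read for elements of the stress pathways named above. RefSeq promoter windows on GRCm38.p6 (250 bases before to 50 after the start) matched 59 of the 73 members, and all 7 that rose. A full ER stress element (CCAAT, 9 bases of any kind, CCACG, on either strand) is present in 0.119% of all 32851 windows. Among members it was found in Hspa5 and Dnajc3, and of these Hspa5 rose while Dnajc3 did not. The 3-unit heat shock element (GAANNTTCNNGAA or TTCNNGAANNTTC) is present in 0.603% of windows and was found in Dnajb6, Hspd1, Hspe1 and Hsph1, none of which was called. A pair of units (GAANNTTC or TTCNNGAA, which every 3-unit element contains) is present in 15.1% of windows and was found in 15 members, including Hspa1a, Hspa1b and Bag3. The cAMP response element TGACGTCA (1.79% of windows) was found only in Dnajc27. A match describes letters and not binding. The stretches below are shown because they belong to members that rose. They are printed in the direction of the gene, with the matched letters in capitals, and the 2 Hsp70 copies are identical there.
Hspa5 (chr2:34772020-34772048, plus strand, match begins 65 bases before the start): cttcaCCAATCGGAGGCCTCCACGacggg
Hspa1a (chr17:34972243-34972270, minus strand, match begins 104 bases before the start): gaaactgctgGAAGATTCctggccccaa
Hspa1b (chr17:34959325-34959352, minus strand, match begins 104 bases before the start): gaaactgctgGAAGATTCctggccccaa

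Whether KCl changed the partition of a member between neurites and soma was tested with a term for each insert, pairing the soma and neurite libraries of the same number. Here a call needed an unadjusted p of at most 0.05 and 1.5-fold. Hspb8 was the only member called, and 0 of all genes passed an adjusted p with the fold in edgeR, against 3 higher and 12 lower in DESeq2, none of them a member. Calls higher covered 2.00% and calls lower 1.35% of 23200 genes, 465 higher and 314 lower with TMM scaling but 343 higher and 447 lower with RLE scaling. Hspb8 went from 2.74 and 3.25 CPM to 5.67 and 5.41 CPM in soma with KCl, and from 9.20 and 5.95 CPM to 6.30 and 8.04 CPM in neurites. The neurite ranges overlapped while the soma ranges did not. The change in its neurite-to-soma ratio was −0.85 ± 0.35 (adjusted p = 0.999, edgeR), and −0.39 without untreated replicate 1, −0.66 without KCl replicate 1 and −1.03 without KCl replicate 2, where it was not called. The number of members called was 0 without untreated replicate 1, 3 without untreated replicate 2, 2 without KCl replicate 1 and 4 without KCl replicate 2. For the 7 members that rose, the differences were −0.19 ± 0.17 (Hspa5), −0.01 ± 0.17 (Dnajb9), −0.41 ± 0.20 (Dnajb1), −0.03 ± 0.18 (Hspa1a), −0.07 ± 0.18 (Hspa1b), 0.13 ± 0.19 (Hspa4) and −0.05 ± 0.34 (Bag3). No difference between compartments was called for them, which at these SEs does not show that the responses were alike.

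The Mettl3 deletion was compared next, since Mettl3 writes m6A. In untreated soma and in untreated neurites no member was called at an adjusted p and 1.5-fold in edgeR or in DESeq2, and Hspb7 was too low to be tested in neurites. Over all genes, calls higher and lower covered 0.0632% and 0.122% of 23750 genes in soma, and 0.0642% and 0.124% of 21814 in neurites. At an unadjusted p of 0.05 with the same fold, 5 members were higher and 1 lower in soma, and 2 higher and 1 lower in neurites. By that rule 1020 of all 23750 genes were higher and 1016 lower in soma, and 565 and 964 of 21814 in neurites. Member medians were 0.05 in soma and 0.00 in neurites, and those of all genes 0.02 and 0.01.

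Dnajc6, auxilin, was at 221 and 233 CPM in WT soma and 119 and 103 CPM in KO soma, and at 263 and 312 CPM in WT neurites and 148 and 139 CPM in KO neurites. Its KO values did not overlap with the WT values in either compartment, and it was not called by edgeR (−1.03 ± 0.66, adjusted p = 0.7004, and −0.997 ± 0.659, adjusted p = 0.873). How many of all genes separate in this way was not counted. The neuronal marker sum was also lower in untreated KO neurites, at 7054 to 8995 CPM against 11268 to 13473 CPM in WT, and in soma at 4670 to 5422 against 5416 to 5806 CPM. The astrocyte sum was 1943 to 2541 CPM in KO soma against 1159 to 1182 CPM in WT. All 10 astrocyte markers had positive KO estimates in both compartments (median 0.97 in soma and 0.84 in neurites) and 8 of 10 neuronal markers negative ones (median −0.18 and −0.50), none of them called. Their part in the level of Dnajc6 was not tested. In an edgeR fit that was not planned beforehand and left out the KCl-treated KO libraries, Dnajc6 was the only member called. It was lower in soma (−1.07, adjusted p = 0.0198) and in neurites (−0.97, adjusted p = 0.0296). In that fit 122 of all 23750 genes were called higher and 297 lower in soma, and 76 and 194 of 21814 in neurites. For some members KO soma Ctrl replicate 2 stood apart from the other soma libraries. There Hspe1 was at 13.9 CPM against 83.7 to 114 CPM in the other 7 soma libraries, Dnaja4 at 23.8 CPM against 2.07 to 3.45, Bag1 at 209 CPM against 23.1 to 57.4, and Hspb11 at 2.41 CPM against 8.66 to 14.0. Without KO soma Ctrl replicate 1, which leaves this library alone, the KO estimates were −2.67 for Hspe1, 3.15 for Dnaja4, 2.39 for Bag1 and −2.46 for Hspb11. Calls over all genes rose in that fit as well. Whether these shifts are particular to the family was not tested. Bag1 also varied in KO neurites Ctrl, with 570 CPM in replicate 1 and 163 CPM in replicate 2. In replicate 2 its neurite level thus lay below its soma level of 209 CPM.

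The KO change of the neurite-to-soma ratio was called, by unadjusted p, for Hspb11 only (1.43 ± 0.59, adjusted p = 0.934, edgeR). Calls higher covered 2.91% and lower 1.28% of 22942 genes. Hspb11, a subunit of intraflagellar transport despite its name, was at 9.59 and 2.41 CPM in KO soma and 13.1 and 12.5 CPM in KO neurites, so the change rests on KO soma Ctrl replicate 2. Without that insert it was 0.56, and without KO Ctrl replicate 1 it was 2.41.

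KCl also raised Hspa5 in KO soma, from 1081 and 889 CPM to 2283 and 3587 CPM (1.57 ± 0.32, adjusted p = 0.0397), the only member called there, where 0.976% of 23679 genes were called higher and 0.194% lower. It fell short with RLE scaling (adjusted p = 0.0520), and without KO soma Ctrl replicate 2 (0.220) or KCl replicate 2 (0.104). The other 6 that rose in WT had positive estimates too: 2.90 ± 0.71 for Dnajb1, 2.50 ± 0.69 for Bag3, 1.54 ± 0.54 for Dnajb9, 1.32 ± 0.57 for Hspa1a, 1.24 ± 0.57 for Hspa1b and 1.08 ± 0.31 for Hspa4. Without KO soma Ctrl replicate 1 the estimate of Hspa5 was 1.62, and calls over all genes rose in that fit. A further fit, not planned beforehand, left out both libraries of KCl-treated replicate 1, so a lone KCl-treated KO library remained in each compartment. The estimates were then 1.84 for Hspa5, 3.58 for Dnajb1, 2.16 for Dnajb9, 1.89 for Hspa1a, 1.80 for Hspa1b, 1.40 for Hspa4 and 1.51 for Bag3. In the replicate kept, Dnajb1 reached 1280 CPM and Hspa1a 106 CPM in soma. In the replicate left out, with its high glial marker sums, Bag3 was at 34.5 CPM in soma and 50.0 CPM in neurites, Hspb8 at 118 and 186 CPM and Hspb6 at 23.3 and 41.3 CPM. In the other 14 libraries these 3 did not exceed 11.8, 25.0 and 12.4 CPM. Whether glial RNA accounts for these levels was not tested. The difference of the KCl response between genotypes in soma was called for Dnajc25 only (−1.03 ± 0.45, adjusted p = 0.994, edgeR), where 0.914% of 24058 genes were called higher and 1.13% lower by this rule. Hspa5 differed by −0.91 and Dnajb1 by 0.88, neither of them called. The number called was 0 without WT soma Ctrl replicate 2, WT soma KCl replicate 1 or the soma library of KO KCl replicate 1, 6 without KO soma KCl replicate 2 and 15 without KO soma Ctrl replicate 1, the omission that leaves the library that stood apart.

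DART-seq converts C to U beside m6A and so gives an editing fraction at each C that follows a methylated A. The deposited site list gives a fraction averaged over WT libraries, and an RNA's score is the authors' sum over its sites. Sites were kept by the authors only in the RAC context (R is A or G) and with more editing in WT than in Mettl3 KO, so neither property is a result here. Called sites were present in 35 of the 73 members and in 5643 RNAs in all. Among protein-coding genes whose mean count reached 100, 35 of 66 members (53.0%) and 43.0% of 12691 genes had sites. The 35 members held 132 sites, of which 61.4% were coding, 34.8% in 3′ UTRs and 3.79% in 5′ UTRs, against 59.9%, 32.0% and 3.95% of all 18231 sites. Their median WT score was 0.0934, and that of all RNAs 0.103.

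The members with the highest WT scores were Hspa12a, an atypical Hsp70 (0.403 over 8 sites), Dnajc5 (0.352 over 14), Dnajc18 (0.316 over 5), Hspa14, a ribosome-associated Hsp70 (0.302 over 3), and Hspa1a (0.287 over 8). The sites lay in different places. All 8 sites of Hspa1a were in its single coding exon, 12 of the 14 sites of Dnajc5 were in the 3′ UTR of its last exon, and 6 of the 8 of Hspa12a were in the 3′ UTR. The most edited site of each, except for Dnajc18, is shown with 10 bases on each side in the direction of the gene, the methylated context and edited C in capitals.
Hspa14, coding exon 5 (chr2:3502537-3502557, minus strand): ggagaagaAACaaaacttgtt
Hspa1a, coding exon 1 (chr17:34970535-34970555, minus strand): gcgcttcgAACtgagcggcat
Hspa12a, 3′ UTR, exon 12 (chr19:58796441-58796461, minus strand): agtagccaAACtcttttagta
Dnajc5, 3′ UTR, exon 5 (chr2:181554181-181554201, plus strand): ctgcatgaAACtggttctggc
The averaged fraction at these sites was 0.214 for Hspa14, the highest of the 132 sites, 0.125 for Hspa1a, 0.102 for Hspa12a and 0.0878 for Dnajc5. The site windows of Hspa1a and Hspa1b share sequence, since 4 of the 8 windows of Hspa1a are also windows of Hspa1b. The editing of the copies cannot be told apart there. The other windows of Hspa1a, the one above included, were not searched for in Hspa1b, so their editing is not shown to belong to Hspa1a alone. One of the shared windows follows.
Hspa1a (chr17:34970479-34970499, minus strand): tgaccttcGACatcgacgcca
Hspa1b (chr17:34957561-34957581, minus strand): tgaccttcGACatcgacgcca

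Of the 7 members that rose with KCl, 5 had sites. Their scores went from that of Hspa5 to that of Hspa1a. Hspa5, with the largest rise, had a single site and a score of 0.00836, rank 5586 of 5643. Dnajb1 had 0.0782 over 4 sites and Hspa4 0.0662 over 2, both below the median member, and Hspa1b had 0.177 over 6. Bag1, the most neurite-enriched member, had 0.0239 over 2 sites. No site was called in Dnajb9 and Bag3, of which Bag3 is scarce. Deposited scores were higher in neurites than in soma for 24 of the 35 members (68.6%), where 68.8% of all RNAs were. For Hspa1a the score was 0.207 in soma and 0.468 in neurites, for Dnajc6 0.157 and 0.345, and for Dnajc5 0.291 and 0.416. Dnajc10 went the other way, with 0.225 and 0.0106 over 2 sites. These are the authors' averages over libraries of both treatments, without a spread, so none of these differences was tested. Read against the KO, the 35 members with sites had a median log2 KO change of 0.06 in soma and −0.10 in neurites, and the members without sites 0.02 and 0.09. The medians of all genes were 0.01 and −0.01 with sites and 0.03 and 0.02 without. For the KO change of the neurite-to-soma ratio, which uses the same libraries, the median was −0.20 in members with sites (28 of 35 negative) and 0.04 in those without, and −0.07 and −0.01 in all genes with and without sites. Of all tested genes 47.5% were above 0 there. Over all tested members the median was −0.14, and it was −0.21 without KO Ctrl replicate 1 and −0.005 without KO Ctrl replicate 2. Over all tested genes the median was −0.03, and it was 0.02 without KO Ctrl replicate 1 and 0.05 without KO Ctrl replicate 2. The split by sites was not repeated without either replicate. These are descriptions without a test.

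**Figure D5:**
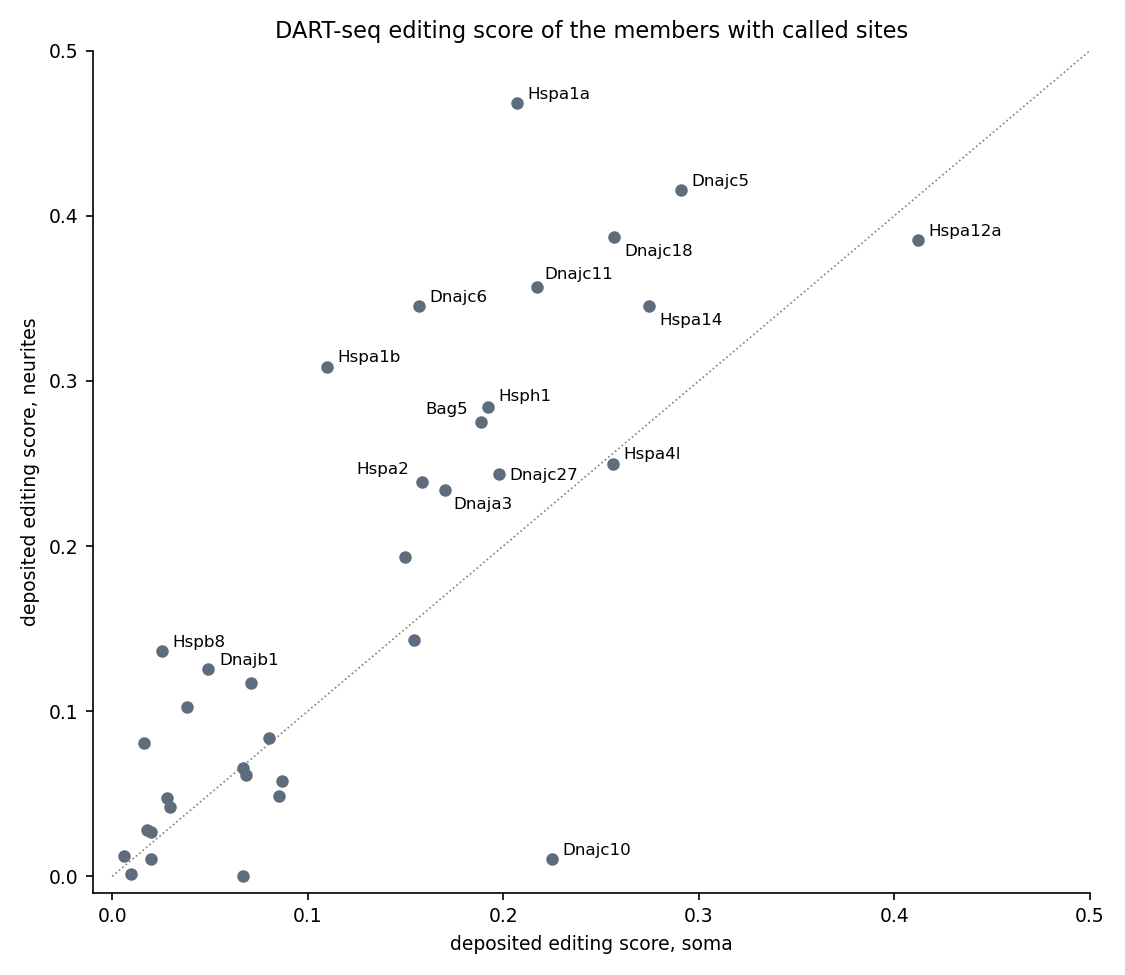
Deposited DART-seq editing score in neurites (vertical) against soma (horizontal) for the 35 members with called sites, both unitless sums of editing fractions. The dotted line marks equal scores. Points of 24 members lie above it, among them Hspa1a at 0.207 and 0.468, and Dnajc10 lies far below it.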

How the data were processed

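The authors trimmed reads with Flexbar, aligned them to mm10 with STAR 2.7.7a and counted fragments with featureCounts 2.0.1 on Ensembl release 97. Multi-mapping reads were counted and no strand was set. The deposited table holds raw counts of fragments per gene. The deposited exon length is in bases. The deposited neurite-enrichment tables, made by the authors with DESeq2, give a mean signal scaled by size factors, used here only to choose members, and fold changes and p-values, which were not used. For DART-seq, the deposited score is the authors' sum over sites and the deposited site value is a fraction averaged by the authors over libraries. Their fold changes and p-values were not used.

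Counts were fitted in edgeR 4.0.16 (R 4.3.3; two-sided quasi-likelihood F-test after TMM scaling, with Benjamini-Hochberg adjustment), keeping genes whose compared libraries averaged 10 counts or more. Thresholds followed the study's methods: an adjusted p of 0.05 with 1.5-fold between compartments and genotypes and 2-fold for KCl, and an unadjusted p of 0.05 with 1.5-fold for changes of these. With 2 libraries a group, precision comes from dispersions shared between genes and groups. WT comparisons used 8 libraries, since spreads of KO replicates were larger, and KO comparisons 16. Levels use scaling over 16 libraries, so their ratios differ slightly from fitted changes. An SE is the log2 change divided by the root of F. Alternatives used DESeq2 1.42.0 and limma 3.58.1. Genomic positions, regions and overlaps came from GENCODE M21 on GRCm38, site windows from the GRCm38.p6 assembly, and promoters from RefSeq on the same build.

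Soma and neurites of the same number were taken as 1 insert. Deviations of same-numbered libraries correlated at −0.141 and 0.0154 (WT Ctrl and KCl, soma with neurites), 0.0716 and 0.901 (KO), and 0.0700, −0.0855 and 0.142 (Ctrl with KCl in WT soma, WT neurites and KO soma). The pairing otherwise comes from the study's methods. Members and lists were chosen with earlier results of these data known. Text names members called in a comparison (at most the 6 largest in each direction with a mean count of at least 100), a set of members with textbook roles, partners Hsf1, Hyou1, Stip1 and Stub1 with the partners called (at most 3 in each direction), and the 5 members with the highest editing scores. Other genes named were chosen after their values were seen. Sequence from chromosome 18 is not shown. The values of 1 member are not reported here.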

Additional observations from a re-analysis of the deposited data

Results flagged for a closer look

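These values came from a test of a difference between effects, at an unadjusted p only. The neurite-to-soma ratio of Hspb8 changed by −0.85 ± 0.35 (log2, SE) with KCl in WT (edgeR adjusted p = 0.999). That of Hspb11 differed by 1.43 ± 0.59 between Mettl3 KO and WT (edgeR adjusted p = 0.934). The KCl response of Dnajc25 in soma differed by −1.03 ± 0.45 between genotypes (edgeR adjusted p = 0.994), with 5.92 and 4.21 CPM before and 9.77 and 7.94 CPM after KCl in WT, and 7.70 and 10.1 CPM before and 7.47 and 7.71 CPM after in KO. The 3 fail the correction over all genes.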

How the results depend on the processing

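With all 16 libraries fitted together, whose KO replicates vary more, the number of members called went from 7 and 8 to 0 for neurites against soma in untreated and KCl-treated WT, from 7 to 1 for the KCl response in each WT compartment, and from 1 to 0 for the KCl change of the ratio. DESeq2, RLE scaling, either count filter, the libraries of the comparison alone and the replicate block kept the 4 WT counts within 1.5 times of 7 and 8. The block, which pairs same-numbered libraries, gave 7 in each of the 4. The KCl change of the ratio gave 0 at an adjusted p. No called member changed sign under any of its alternatives.

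For Mettl3 KO against WT, 0 members became 1 in soma and 1 in neurites with KCl-treated KO left out. The KO change of the ratio went from 1 to 3 with DESeq2, limma with weights or no filter, to 2 with RLE scaling, and to 0 for the comparison alone, without the replicate block or at an adjusted p. The KCl response in KO soma went from 1 to 6 with DESeq2, 4 with the replicate block and 3 without a filter. It went to 0 with limma, RLE scaling or the comparison alone. The genotype difference of the KCl response went from 1 to 4 with DESeq2 or the replicate block, 3 with limma, 5 without a filter and 0 for the comparison alone or at an adjusted p. The cause of these shifts was not tested.

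Leaving out each replicate in turn gave 4 to 7 members called for neurites against soma in untreated WT, 3 to 9 in KCl-treated WT, 6 to 9 and 6 to 8 for the KCl response in WT soma and neurites, 0 to 4 for its change of the ratio, 0 to 12 and 0 to 1 for KO against WT in soma and neurites, 0 to 18 for the KO change of the ratio, 0 to 11 for the KCl response in KO soma and 0 to 15 for the genotype difference. With 2 libraries a group, a lone library is assumed to vary like the other groups. For KO against WT in soma, the KO change of the ratio and the KCl response in KO soma, the highest count came without untreated KO replicate 1. Calls over all genes rose in those fits as well. Whether these counts are particular to the family was not tested.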
